A study of Mus musculus with 12 samples.

Results

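The proteasome genes described here were taken from the array annotation by symbol. A probe set was a member if it carried a single gene symbol that began with Psm, a letter from a to g and a digit. In all, 58 of 12422 tested probe sets met the rule, standing for 46 of 8251 genes. They comprised 22 probe sets of 17 genes for the core particle (Psma and Psmb), 25 of 20 genes for the regulatory particle (Psmc and Psmd, among them 3 assembly chaperones) and 4 of 3 genes for activators (Psme). A further 5 probe sets of 4 genes stood for the chaperones of core assembly (Psmg). The rule also took 2 genes that encode no subunit, Psmc3ip, a factor of meiotic recombination, and Psme3ip1. They were kept because the rule names them, and without them the members numbered 56 probe sets of 44 genes. Another 2 probe sets whose annotation joins several symbols were left out.

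A single adult NMR-1 mouse supplied liver, cortex and cerebellum RNA, which was measured on MG_U74Av2 arrays, oligonucleotide arrays for mouse transcripts. Each tissue's RNA was handled in either of 2 ways. In the standard Affymetrix procedure, written 1X, 5 µg of RNA went through 1 linear amplification and onto 1 array per tissue. In the modified procedure, written 3X, 1 ng went through 3 linear amplifications with the RiboAmp HS kit and was repeated as 3 technical replicates per tissue. This gave 12 arrays in 6 groups, which the series was designed to compare across tissues and procedures. The labels name no treatment or genetic change. Since every array came from the same animal, no p-value measures the spread between mice. Between tissues at 3X, p-values measure the spread between technical replicates. For 3X against 1X the spread also holds how far the change differed between tissues, and the 1X arrays had no replicates. The procedures differ in RNA input, in kit and in the number of amplifications, which cannot be told apart.

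The proteasome is the protease that degrades proteins tagged with ubiquitin. Its core is a stack of rings of alpha and beta subunits, in which Psmb5, Psmb6 and Psmb7 carry the active sites. In cells exposed to interferon these are replaced in new particles by the inducible subunits Psmb8, Psmb9 and Psmb10, which changes the peptides cut for display on MHC class I molecules. A regulatory particle caps the core: its base holds the ATPases Psmc1 to Psmc6, which unfold substrates, and the ubiquitin receptor Psmd4, and its lid holds the deubiquitinase Psmd14. Psme1 belongs to an interferon-induced ring that opens the core without ATP, and Psme3 and Psme4 form nuclear activators. The core is made in every tissue, and its genes are under common control of the transcription factor Nfe2l1.

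The 300-base promoter windows of Psmb8, Psmb9 and Psme1 are shown because these are the interferon-induced genes among the members that changed differently with the procedure in liver than in the brain regions. For Psme1 this held for probe set 101510_at only. Windows of Psmd11 and Psmb5, which each had such a probe set, are not shown. They come from RefSeq on build GRCm38.p6, run 5′ to 3′ on the gene's strand and reach from 250 bases before the start to 50 after it. Capitals mark matches to either of 2 motifs searched on both strands. One is a pair of GAAA repeats 2 bases apart, a core of the element bound by interferon regulatory factors, and the other is TTCNNNGAA, the element bound by STAT factors. The windows lie at chr17:34197945-34198244 (plus strand, Psmb8), chr17:34187281-34187580 (minus strand, Psmb9) and chr14:55578244-55578543 (plus strand, Psme1).
Psmb8: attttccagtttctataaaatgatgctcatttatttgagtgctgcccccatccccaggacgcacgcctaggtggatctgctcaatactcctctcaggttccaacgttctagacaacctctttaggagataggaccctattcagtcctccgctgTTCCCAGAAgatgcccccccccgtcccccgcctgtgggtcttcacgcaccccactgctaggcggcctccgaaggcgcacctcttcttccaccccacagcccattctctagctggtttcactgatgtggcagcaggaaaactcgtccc
Psmb9: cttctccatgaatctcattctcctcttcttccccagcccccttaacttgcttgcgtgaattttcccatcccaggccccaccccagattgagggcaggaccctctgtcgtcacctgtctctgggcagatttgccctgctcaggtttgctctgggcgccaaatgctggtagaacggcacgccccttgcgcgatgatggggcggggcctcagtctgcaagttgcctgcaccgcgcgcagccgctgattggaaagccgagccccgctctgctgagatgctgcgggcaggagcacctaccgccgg
Psme1: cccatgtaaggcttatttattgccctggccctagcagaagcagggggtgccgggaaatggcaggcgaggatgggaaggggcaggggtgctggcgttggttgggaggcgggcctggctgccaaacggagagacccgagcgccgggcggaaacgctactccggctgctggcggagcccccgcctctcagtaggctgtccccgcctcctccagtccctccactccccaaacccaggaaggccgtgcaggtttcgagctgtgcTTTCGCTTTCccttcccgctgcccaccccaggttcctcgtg
Psmb8 held a TTCNNNGAA match from base -97 to -89 relative to the start. Psme1 held the GAAA pair on the reverse strand from base 10 to 19, and the Psmb9 window held no match to either motif. Windows were found for 39 of the 46 genes, 42 in all. The GAAA pair was present in 5 of the 42 (11.9%) and in 3.44% of all 32851 promoter windows of the same length, and TTCNNNGAA in 3 of 42 (7.14%) and 8.3%. TGACNNNGC, a core of the element bound by Nfe2l1 and Nfe2l2, was present in 6 of 42 (14.3%, among them Psmb5, Psmb6, Psmc6 and Psmd12) and in 12.4% of all windows. CCAAT was present in 15 of 42 (35.7%) and in 37.4%. These matches describe letters and are no evidence of binding.

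Values are the authors' RMA signals on the log2 scale, and errors are standard errors (SE) from limma unless stated. Array medians lay between 3.45 and 3.48, and 22 members had a mean signal below the median of all probe sets. RMA gives no detection call, so for such dim signals a difference does not measure an RNA ratio, and levels of different probe sets are not comparable. Over all probe sets, r was 0.977 to 0.994 between 3X arrays of a tissue and 0.893 to 0.928 between a 3X and the 1X array. Among 3X replicates, the members' median SD was 0.180 for liver (0.135 for all probe sets), 0.134 for cortex (0.107) and 0.124 for cerebellum (0.102). Tissue markers followed the labels in their medians. For 8 hepatocyte genes the median was 10.13 to 10.93 on the 3X liver arrays and at most 3.92 on the 3X brain arrays. For 9 neuron genes it was 7.27 to 7.74 in brain and at most 4.64 in liver. Not every gene did: Ttr had 3X means of 11.12 in liver and 11.0 in cortex, and the dim Nefl differed by -0.01 ± 0.07 between liver and brain. Liver replicate 3 stood apart, with the highest hepatocyte median of the 3 and the highest signal of the liver arrays for 35 of 58 members (27.5% of all probe sets). Liver results are therefore also given without it. It did not vary alone. Over all probe sets, deviations from the tissue mean correlated between replicate 3 of liver and cortex (0.34), liver and cerebellum (0.29), and cortex and cerebellum (0.30). Kidney tubule markers were higher in the cerebellum arrays, where 7 of 10 passed the test against cortex.

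Between liver and the brain regions at 3X, the inducible subunits Psmb8 and Psmb9 were higher in liver, while a few constitutive subunits were lower. Of the 58 members, 2 were called higher in liver (3.45%, against 8.17% of all probe sets) and 7 lower (12.1%, against 12.3%), a call being a limma adjusted p under 0.05 over the 12422 probe sets. With all arrays, neither share was above that of all probe sets. Without liver replicate 3 this held for higher calls only: 17 members were lower (29.3%, against 13.3% of all probe sets) and 3 higher (5.17%, against 10.1%). That fit kept replicate 3 of cortex and cerebellum, which deviated in common with liver replicate 3. Liver replicate 3 was set apart in part by the members' own high signals on it. Leaving it out therefore lowers their liver mean by that choice, and the share of 29.3% is no independent result. Without liver replicate 1 or 2 neither share was above that of all probe sets. With all arrays no member was called with a difference of 1 or more on the log2 scale at 3X (2.32% of all probe sets higher and 3.14% lower), and without liver replicate 3 Psmd14 was (-1.27 ± 0.18). The median difference of the members was -0.08, against 0.01 over all probe sets. Among the 36 members that were not dim it was -0.003, against 0.006 over all such probe sets, with 18 positive and 18 negative. Of these 36, 2 were called higher and 3 lower, against 636 and 955 of 6211 such probe sets. In these tissue extracts, more cells of a type and more RNA per cell cannot be told apart.

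Psmb8, the inducible subunit that takes the place of Psmb5, had 1X signals of 7.47 in liver, 5.34 in cortex and 5.32 in cerebellum. Its 3X signals were 5.81, 6.10 and 6.42 in liver, 5.54, 5.84 and 5.37 in cortex, and 5.68, 5.32 and 5.38 in cerebellum. All liver arrays were above the cerebellum arrays, and the lowest liver array fell just below the highest cortex array. The difference between liver and the mean of the brain regions was 0.58 ± 0.15 at 3X (limma adjusted p = 0.0179) and 2.14 at 1X, where a single array per tissue allowed no test. Psmb9, the counterpart of Psmb6, stood at 5.20 in liver, 3.57 in cortex and 3.46 in cerebellum at 1X and at 4.33, 4.47 and 4.30 in liver, 3.68, 4.25 and 4.02 in cortex, and 3.95, 3.92 and 3.93 in cerebellum at 3X. Here the 3X liver arrays did not overlap the brain arrays. It was higher in liver by 0.41 ± 0.11 at 3X (limma adjusted p = 0.0237) and by 1.68 at 1X. Set against each region alone, both genes passed against cerebellum (limma adjusted p = 0.0264 and 0.0406) and missed the threshold against cortex (0.0654 and 0.0675). Psmb9 was no longer called without liver replicate 1 (0.0556), liver replicate 2 (0.0982) or cerebellum replicate 2 (0.0505), and Psmb8 without liver replicate 2 (0.0538).

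Psmb10, the inducible counterpart of Psmb7, did not show this pattern. It stood at 6.39 in liver, 6.16 in cortex and 6.11 in cerebellum at 1X, and at 5.74, 5.85 and 6.0 in liver, 5.96, 6.03 and 5.81 in cortex, and 6.08, 5.81 and 5.80 in cerebellum at 3X, so that the tissues overlapped. The liver difference was -0.05 ± 0.09 (limma adjusted p = 0.76). With all arrays the constitutive catalytic subunits were not called between tissues either. Psmb5 (101558_s_at) had 1X signals of 7.44 in liver, 7.37 in cortex and 7.67 in cerebellum, and 3X signals of 4.84, 4.65 and 4.98 in liver, 5.19, 5.00 and 5.10 in cortex, and 4.91, 5.14 and 5.07 in cerebellum. The difference for liver, -0.24 ± 0.09, missed the threshold (limma adjusted p = 0.0936), and without liver replicate 3 it was called lower (-0.32 ± 0.10; limma adjusted p = 0.0333). A second, dim Psmb5 probe set (160559_at) read 2.77 in liver, 2.39 in cortex and 2.22 in cerebellum at 1X and 2.25, 2.14 and 2.30 in liver, 2.60, 2.31 and 2.42 in cortex, and 2.38, 2.45 and 2.44 in cerebellum at 3X (liver difference -0.21 ± 0.08). Psmb6 was bright, with 8.49 in liver, 7.94 in cortex and 8.22 in cerebellum at 1X, and 6.73, 6.89 and 7.08 in liver, 6.87, 6.82 and 7.08 in cortex, and 6.85, 6.89 and 7.10 in cerebellum at 3X (liver difference -0.04 ± 0.10). Psmb7 read 5.29 in liver, 5.71 in cortex and 5.79 in cerebellum at 1X, and 4.11, 4.29 and 4.41 in liver, 4.37, 4.14 and 4.31 in cortex, and 4.17, 4.31 and 4.08 in cerebellum at 3X (liver difference 0.04 ± 0.09). All 3 tissues overlapped at 3X for Psmb6 and Psmb7.

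**Figure D1:**
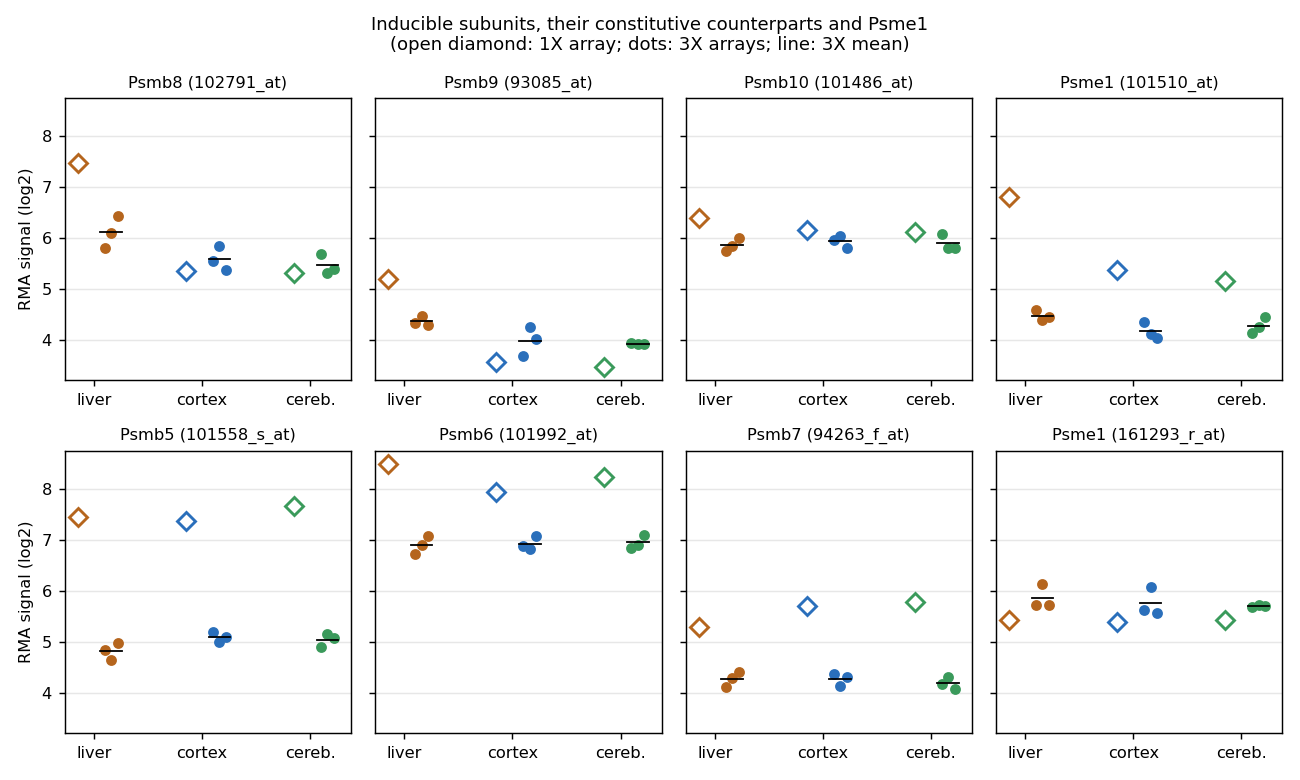
RMA signal (log2) of the inducible core subunits, the constitutive subunits they replace and both Psme1 probe sets by tissue (cereb., cerebellum). Open diamonds are the single 1X arrays, dots the 3 3X arrays and lines their mean; Psmb8 and Psmb9 are higher in liver at 1X (by 2.14 and 1.68) and by less at 3X (0.59 and 0.41), while Psmb5 and Psmb6 lie far lower at 3X in every tissue.

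Markers of blood and resident immune cells were read beside these genes. Of 15 lymphocyte probe sets 1 was higher in liver at 3X (8.17% of all probe sets), the B cell gene Ms4a1 in 104173_at at 0.26 ± 0.06. The median of 11 lymphocyte genes was 3.06 to 3.21 on the liver arrays and 2.93 to 3.14 on the brain arrays. Of 18 macrophage and microglia probe sets 3 were higher and none lower (8.17% and 12.3% of all probe sets). These were the Kupffer cell receptor Clec4f (1.11 ± 0.14, and 2.00 at 1X), Lyz2 (0.35 ± 0.10) and C1qc (0.31 ± 0.10). Of the 18 differences 14 were positive and 4 negative. The other Lyz2 probe set (0.02 ± 0.08), C1qa (-0.001 ± 0.13) and both C1qb probe sets (0.11 ± 0.10 and -0.02 ± 0.12) were not called. The median of the 12 macrophage and microglia genes was 4.10 to 4.24 in liver and 3.92 to 4.24 in brain at 3X. At 1X, with 1 array per tissue, the liver difference was 0.80 for C1qc, 0.67 for C1qa, 0.44 and 0.51 for C1qb, and 0.67 and -0.07 for Lyz2. Of the 18 differences at 1X 14 were positive and 4 negative, with a median of 0.13. The part of blood and immune cells in the Psmb8 and Psmb9 difference was not tested.

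None of the 4 activator probe sets was called between liver and brain at 3X. All 4 differences were positive, as were 6569 of all 12422. Psme1 (101510_at), whose product joins the interferon-induced activator ring, had 1X signals of 6.81 in liver, 5.37 in cortex and 5.15 in cerebellum, a liver difference of 1.54. At 3X it read 4.59, 4.39 and 4.45 in liver, 4.35, 4.12 and 4.04 in cortex, and 4.13, 4.25 and 4.46 in cerebellum, and liver overlapped cerebellum (0.25 ± 0.10; limma adjusted p = 0.101). The other Psme1 probe set (161293_r_at, with a suffix for less specific probes) gave 5.42 in liver, 5.39 in cortex and 5.42 in cerebellum at 1X and 5.73, 6.13 and 5.72 in liver, 5.62, 6.07 and 5.57 in cortex, and 5.68, 5.73 and 5.71 in cerebellum at 3X, with no visible order of the tissues. Psme3 was dim at 3X (3.06, 3.30 and 3.38 in liver, 3.22, 3.27 and 3.21 in cortex, and 3.21, 3.20 and 2.90 in cerebellum) and stood at 3.68 in liver, 4.06 in cortex and 4.16 in cerebellum at 1X. The Psme3 liver difference was 0.08 ± 0.10 at 3X and -0.43 at 1X. Psme4, which caps the core as a single chain, had 4.66 in liver, 3.61 in cortex and 3.81 in cerebellum at 1X and 3.83, 3.80 and 3.94 in liver, 3.73, 3.39 and 3.67 in cortex, and 3.67, 3.85 and 3.70 in cerebellum at 3X. Its liver difference was 0.94 at 1X and 0.19 ± 0.09 at 3X (limma adjusted p = 0.194).

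The 7 members lower in liver belonged to the core and the regulatory particle. A probe set for the core subunit Psmb1 (160875_at) had 4.80 in liver, 6.0 in cortex and 5.88 in cerebellum at 1X and 5.88, 5.69 and 6.24 in liver, 6.68, 6.59 and 6.70 in cortex, and 6.61, 6.62 and 6.65 in cerebellum at 3X. Every liver array lay below every brain array in both procedures. The difference was -0.70 ± 0.11 at 3X (limma adjusted p = 0.000823) and -1.14 at 1X, but the other Psmb1 probe sets stood at 0.14 ± 0.13 and -0.16 ± 0.11 and were not called. The latter (98113_at) was called lower without liver replicate 3 (-0.30 ± 0.09; limma adjusted p = 0.0301), and the mean of the 3 probe sets differed by -0.24. The alpha subunit Psma2 read 4.91, 5.04 and 5.64 in liver, 5.83, 5.69 and 5.85 in cortex, and 5.86, 5.71 and 5.93 in cerebellum at 3X, again without overlap, and 6.23 in liver, 6.25 in cortex and 6.54 in cerebellum at 1X. It was lower in liver by 0.61 ± 0.14 (limma adjusted p = 0.0114), a call lost without liver replicate 1 (0.0535) or liver replicate 2 (0.0565). Liver replicate 3 was the closest to brain for both genes.

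Psmd14, the deubiquitinase of the lid that releases ubiquitin from substrates, had the largest difference among the members called, -0.99 ± 0.22 (limma adjusted p = 0.00864). With quantile normalization it was -0.64 and not called (limma adjusted p = 0.0556). Its signals were dim: 1.13, 1.05 and 1.94 in liver, 2.36, 1.84 and 2.56 in cortex, and 2.44, 2.22 and 2.78 in cerebellum at 3X, and 1.90 in liver, 2.38 in cortex and 2.37 in cerebellum at 1X. Liver replicate 3 overlapped cortex, and no ratio of RNA follows from these levels. The neighbouring lid subunit Psmd7, also dim, had 3X signals of 2.04, 2.19 and 2.53 in liver, 2.85, 2.58 and 2.72 in cortex, and 2.79, 2.87 and 2.94 in cerebellum and 1X signals of 2.68 in liver, 2.79 in cortex and 2.85 in cerebellum. It was lower by 0.54 ± 0.11 (limma adjusted p = 0.00538) with no overlap. The remaining 3 were the assembly chaperone Psmd5 (-0.46 ± 0.11, also dim), the ATPase Psmc5 in its dim probe set 160534_at (-0.35 ± 0.10) and the scaffold subunit Psmd1 (-0.35 ± 0.10). The brighter Psmc5 probe set 161921_f_at showed no such difference (0.03 ± 0.09) and was not called. Psmc5 lost its call under 6 of 16 alternatives and Psmd1 under 6 of 17.

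By role, 1 of 7 alpha subunits, 1 of 12 constitutive beta probe sets, 1 of 9 ATPase probe sets, 1 of 3 for the base without the ATPases, 2 of 10 lid probe sets and 1 of 3 regulatory assembly chaperones were called lower. None of these roles had a member called higher, and the 5 core assembly probe sets had no call. The count of lower calls moved with liver replicate 3. Of the 17 members lower without it, 6 were among the 7 above. The 11 probe sets newly lower were the Psmb5 and Psmb1 probe sets given above, the alpha subunits Psma5 (-0.65 ± 0.10; limma adjusted p = 0.000535), Psma3 (-0.54 ± 0.13) and Psma6 (-0.44 ± 0.11), the ATPases Psmc6 (-0.88 ± 0.18) and Psmc3 (-0.96 ± 0.15 and -0.84 ± 0.20 in 2 probe sets), and Psmd6 (-0.90 ± 0.23), Psmd12 (-0.57 ± 0.17) and Psmd4 (-0.34 ± 0.11). Of these, Psma5, Psma6, Psmd6, Psmd4 and the Psmb1 probe set were dim. Both Psmc3 probe sets carry a suffix. So does the brightest Psmc3 probe set (93734_i_at), which was not called in that fit (-0.22 ± 0.11; limma adjusted p = 0.167). The newly higher member was the assembly chaperone Psmg3 in probe set 162356_r_at (0.53 ± 0.12; limma adjusted p = 0.00931). The brighter Psmg3 probe set 94543_at was not called (0.26 ± 0.10; limma adjusted p = 0.0986). Without liver replicate 1, 4 members were lower (6.9%, against 10.3% of all probe sets) and 1 higher (1.72%, against 6.61%). Without liver replicate 2, 5 were lower (8.62%, against 9.39%) and 1 higher (1.72%, against 6.77%), the lid subunit Psmd8 (0.33 ± 0.10). In a call that required the same direction against each region separately, 4 were lower, Psmd14, Psmb1, Psma2 and Psmd7 (6.9%, against 7.45% of all probe sets), and 0 higher (5.02% of all).

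**Figure D2:**
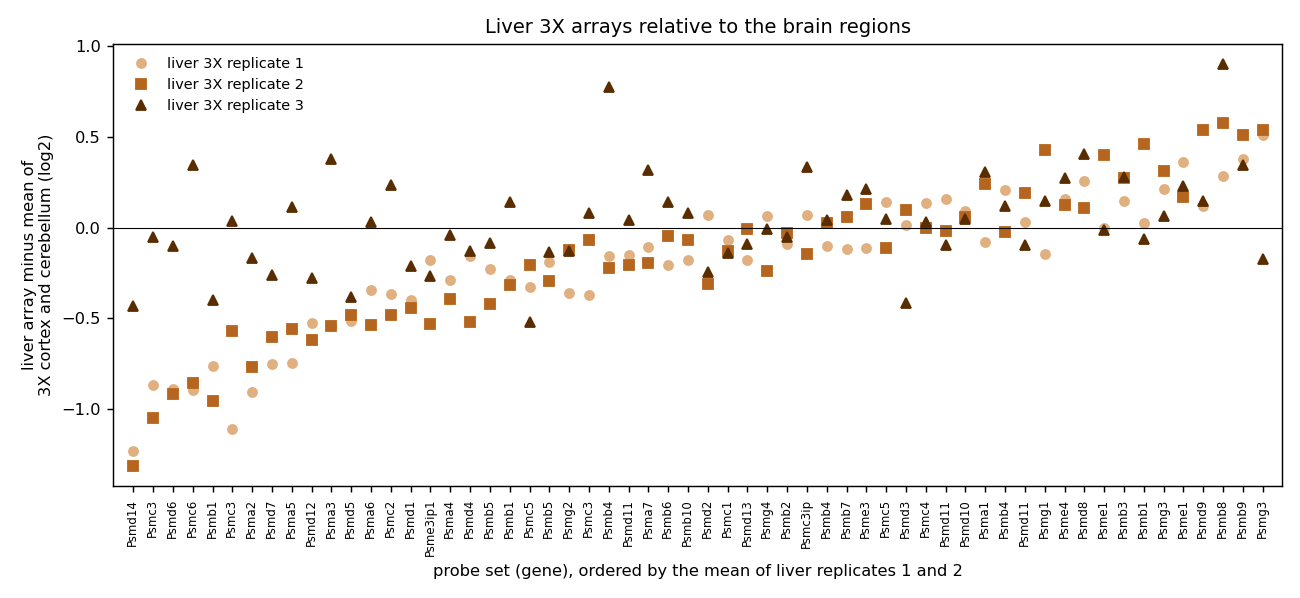
Each 3X liver array minus the mean of the 3X cortex and cerebellum arrays (log2) for the 58 probe sets, ordered by the mean of liver replicates 1 and 2. Replicate 3 (triangles) lies above the other liver arrays for 35 probe sets, and for 10 of them by over 0.5 above the mean of the other two.

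The 1X arrays gave another picture for the core. There 37 members were higher in liver by value and 21 lower, against 5731 and 6691 of all 12422 probe sets. Of the 58 members 35 had the same sign as at 3X, against 8336 of the 12422. Differences of 1 or more were found for 5 members (8.62%, against 13.2% of all probe sets): Psmb8, Psmb9, Psme1 (101510_at), a Psmd11 probe set (160305_at, 1.03) and, negative, Psmb1 (160875_at). Of the 7 alpha subunits 6 were higher in liver at 1X, with a median of 0.42, led by Psma7 (0.89) and Psma4 (0.86). At 3X 5 of the 7 were negative, with a median of -0.24. The ATPases had a median of -0.06 at 1X and -0.20 at 3X, and the lid 0.02 and -0.10. With 1 array per tissue, these 1X values have no replicate check.

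**Figure D3:**
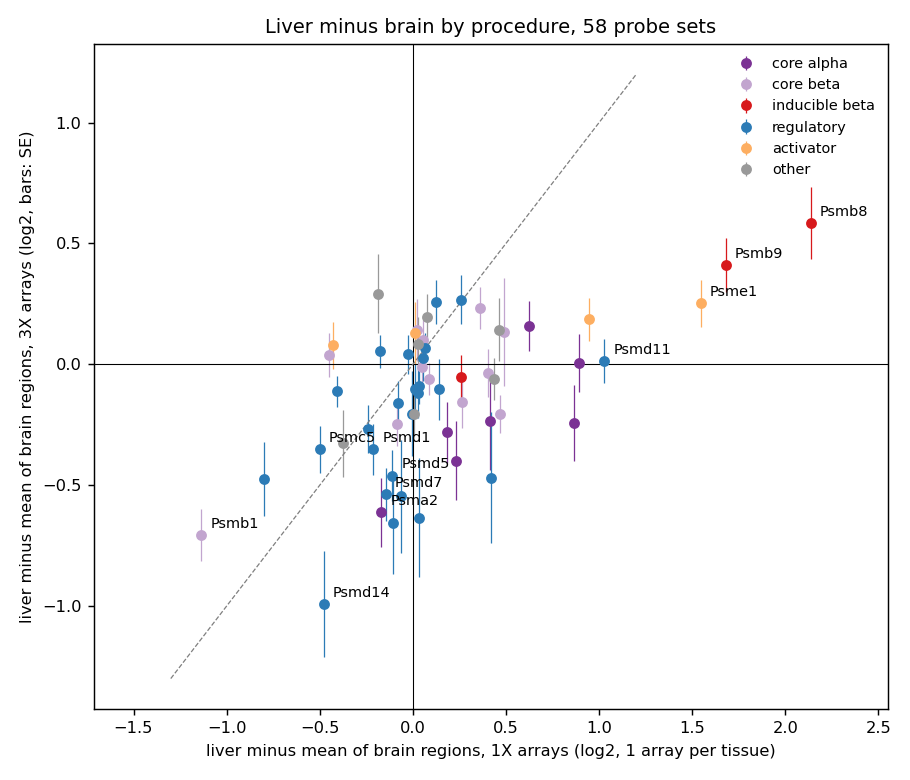
Liver minus the mean of cortex and cerebellum (log2) at 1X (horizontal, 1 array per tissue) and at 3X (vertical, bars are SE) for the 58 probe sets, coloured by role ("other" stands for core assembly chaperones and the 2 matches that are no subunit). The dashed line marks equal values; Psmb8, Psmb9 and Psme1 lie far below it on the right, with 2.14, 1.68 and 1.55 at 1X.

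No proteasome gene passed the test between cortex and cerebellum. Of the 58 members limma called 0, against 1.06% of all probe sets, and 2 had an unadjusted p under 0.05. These were the lid subunit Psmd12 (-0.40; unadjusted p = 0.0471; limma adjusted p = 0.574), with 3X signals of 6.46, 6.37 and 6.71 in liver, 6.76, 6.56 and 7.04 in cortex, and 7.01, 6.98 and 7.59 in cerebellum, and the large base subunit Psmd2 (0.26; unadjusted p = 0.0363; limma adjusted p = 0.526), with 4.21, 3.83 and 3.90 in liver, 4.34, 4.34 and 4.13 in cortex, and 4.04, 3.98 and 4.01 in cerebellum. For Psmd12 the highest array was cerebellum replicate 3. The difference was under 0.3 in size for 57 of 58 members, and the median was -0.01. Replicate blocks, other scalings and leaving out any 3X array also gave 0 calls.

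At 3X the signals of most proteasome probe sets were lower than at 1X. Of the 58 members 31 were called lower at 3X (53.4%, against 19.5% of all probe sets) and 17 higher (29.3%, against 37.5%). The fall was 1 or more for 18 members (31.0%), a size that 6.23% of all probe sets reached, and no called rise reached 1 (2.21% of all probe sets). The median change was -0.33, while that of all probe sets was 0.12. The sign was the same in all 3 tissues for 53 members. For 31 members all 9 3X arrays lay below the 1X array of their tissue (15.9% of all probe sets), and for 16 above it (36.9%). Among the 36 members that were not dim, 17 fell and 14 rose, against 22.8% and 37.2% of such probe sets.

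In the core, 6 of 7 alpha subunits fell and 1 rose, with a median of -0.74. Psma4 fell by 2.38 ± 0.21 (9 3X against 3 1X arrays; limma adjusted p = 9.54e-06). It went from 5.77 in liver, 4.95 in cortex and 4.86 in cerebellum at 1X to 2.61, 2.50 and 2.86 in liver, 3.34, 2.65 and 2.82 in cortex, and 3.10, 2.81 and 2.64 in cerebellum, where it was dim. Psma7 fell by 1.75 ± 0.17, Psma5 by 1.16 ± 0.17, Psma2 by 0.74 ± 0.15, Psma1 by 0.70 ± 0.11 and Psma6 by 0.48 ± 0.13. The exception, Psma3, rose by 0.94 ± 0.21 (limma adjusted p = 0.00294), from 7.28 in liver, 6.84 in cortex and 6.88 in cerebellum to 7.48, 7.48 and 8.40 in liver, 7.95, 7.73 and 8.24 in cortex, and 7.90, 8.05 and 8.27 in cerebellum. Its probe set carries a suffix for probes shared with related transcripts.

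Of the 12 constitutive beta probe sets 7 fell and 4 rose. The main Psmb5 probe set fell by 2.51 ± 0.09, or 5.69-fold (limma adjusted p = 3.51e-08), from the 1X signals given above to 3X signals that did not overlap them in any tissue. Psmb3, a structural subunit of the beta ring, fell by 2.16 ± 0.08 (4.47-fold; limma adjusted p = 3.51e-08). It stood at 8.14 in liver, 7.68 in cortex and 7.88 in cerebellum at 1X, and at 5.81, 5.94 and 5.95 in liver, 5.72, 5.46 and 5.82 in cortex, and 5.74, 5.67 and 5.59 in cerebellum at 3X. Psmb6 fell by 1.29 ± 0.11 (2.45-fold), Psmb7 by 1.35 ± 0.11 and Psmb2 by 1.48 ± 0.06. The catalytic subunits of the constitutive core each had a probe set that fell by over 1. Among the inducible subunits, Psmb10 fell by 0.33 ± 0.09 (limma adjusted p = 0.0122), a call lost with quantile normalization (0.101) or without the liver arrays (0.0733), and Psmb8 (-0.33 ± 0.26) and Psmb9 (0.01 ± 0.21) were not called.

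In the regulatory particle the ATPases had 6 falls and 1 rise in 9 probe sets, with a median of -0.86. Psmc2 fell by 2.21 ± 0.17 (4.63-fold; limma adjusted p = 3.29e-06), from 7.32 in liver, 7.10 in cortex and 7.55 in cerebellum to 4.82, 4.70 and 5.42 in liver, 5.13, 4.88 and 5.41 in cortex, and 5.00, 5.16 and 5.49 in cerebellum. Psmc3 (93734_i_at) fell by 2.18 ± 0.10 (4.54-fold; limma adjusted p = 9.44e-08). It went from 7.65 in liver, 7.65 in cortex and 7.59 in cerebellum to 5.12, 5.42 and 5.57 in liver, 5.55, 5.31 and 5.40 in cortex, and 5.48, 5.67 and 5.54 in cerebellum. Neither overlapped between procedures. Psmc6 fell by 1.49 ± 0.28 and Psmc1 by 0.86 ± 0.08, while Psmc4, dim throughout, was not called (0.10 ± 0.06). The base without the ATPases had the opposite balance, with Psmd1 and Psmd2 higher and the ubiquitin receptor Psmd4 lower (-2.01 ± 0.09). Psmd1, a scaffold of the base, rose by 0.68 ± 0.09 (limma adjusted p = 0.000197), from 6.08 in liver, 6.19 in cortex and 6.40 in cerebellum to 6.62, 6.58 and 6.81 in liver, 6.74, 6.93 and 7.24 in cortex, and 7.05, 7.09 and 7.07 in cerebellum. Psmd2 rose by 0.65 ± 0.08 (limma adjusted p = 0.000104) from 1X signals of 3.38 in liver, 3.60 in cortex and 3.32 in cerebellum, its 3X signals being those given above.

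The lid was divided, with 4 rises and 4 falls in 10 probe sets. Psmd8 rose by 0.62 ± 0.08 and Psmd12 by 0.54 ± 0.15, while Psmd6 fell by 1.73 ± 0.25, Psmd13 by 1.01 ± 0.06 and Psmd3 by 0.61 ± 0.10. Psmd14 and Psmd7 were not called. The assembly chaperones Psmd5 (0.33 ± 0.11) and Psmd9 (0.32 ± 0.09) rose and Psmd10 fell (-0.15 ± 0.05). Of the core assembly chaperones, both Psmg3 probe sets rose. The brighter (94543_at) rose by 0.62 ± 0.08 (limma adjusted p = 0.000148), from 5.66 in liver, 5.63 in cortex and 5.54 in cerebellum to 6.38, 6.48 and 6.23 in liver, 6.20, 6.24 and 6.20 in cortex, and 6.32, 6.12 and 5.92 in cerebellum. Psmg4 (-0.76 ± 0.10) and Psmg2 (-0.28 ± 0.08) fell and Psmg1 (-0.29 ± 0.13) was not called. Among the activators, Psme3 fell by 0.77 ± 0.11 and Psme4 was not called (-0.29 ± 0.13). Psme3ip1 was lower (-0.42 ± 0.13) and Psmc3ip showed no call (0.04 ± 0.10).

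**Figure D4:**
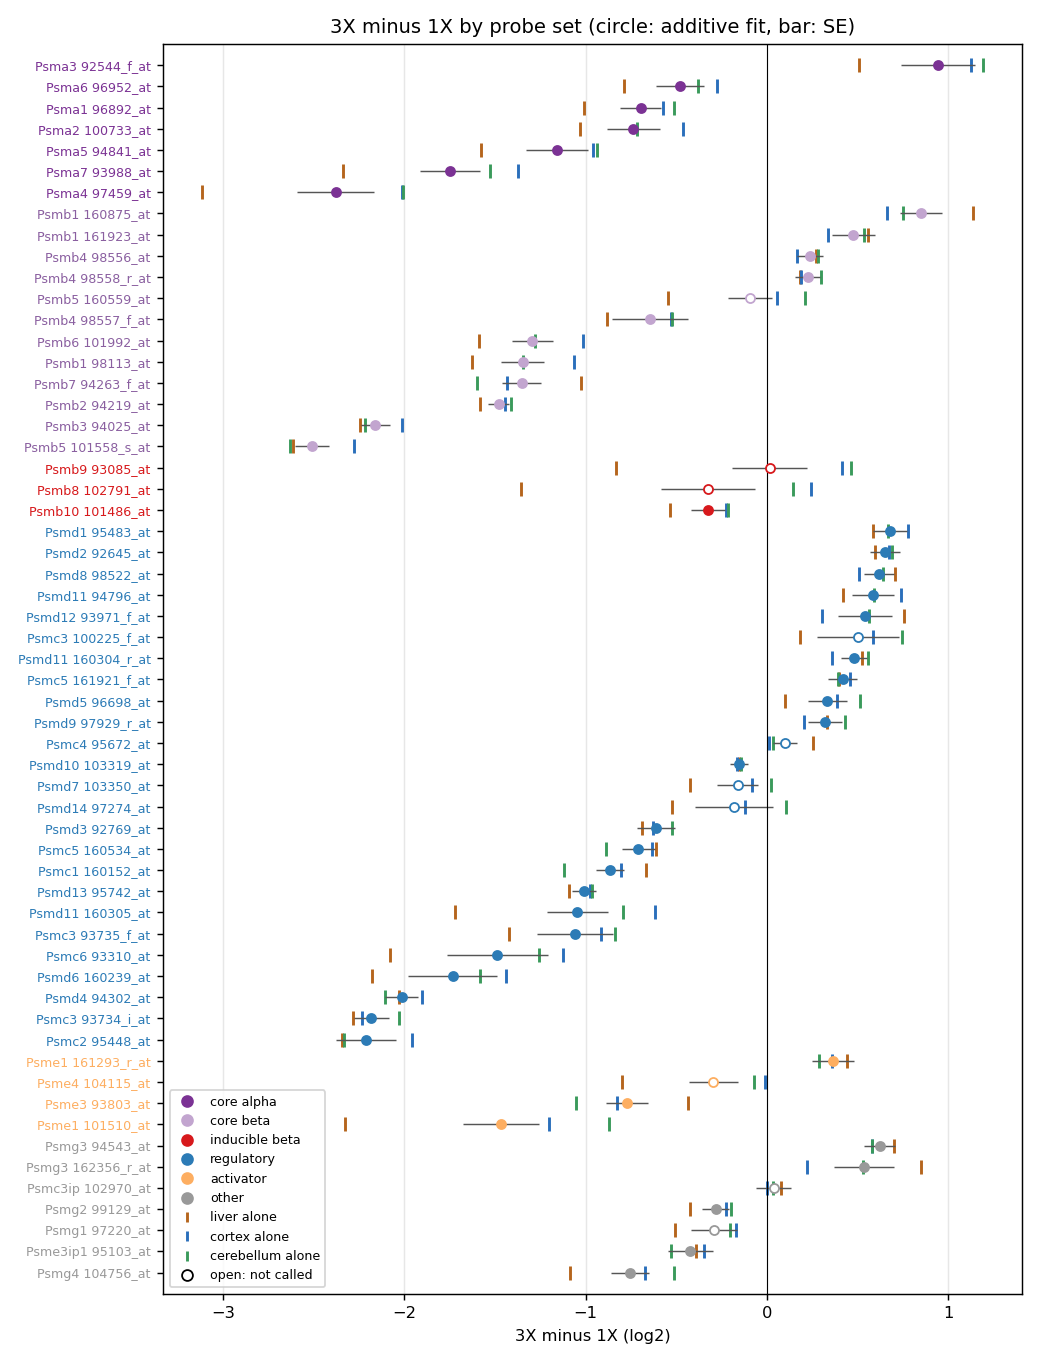
Change from 1X to 3X (log2) for the 58 probe sets by role. Circles are the additive fit with SE bars (filled where the limma adjusted p is under 0.05) and ticks the change in each tissue alone; 31 filled circles lie left of 0 and 17 right of it, and for Psmb8 and Psmb9 the liver tick lies on the other side of 0 from the brain ticks.

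Probe sets of a single gene often disagreed on the direction of the 3X change. Of 8 genes with several probe sets, 5 had calls in both directions. For Psmb1, 160875_at rose by 0.85 ± 0.11 and the dim 161923_at by 0.48 ± 0.12, while 98113_at fell by 1.35 ± 0.12. The second of these read 2.06 in liver, 2.10 in cortex and 1.96 in cerebellum at 1X and 2.50, 2.93 and 2.41 in liver, 2.50, 2.59 and 2.24 in cortex, and 2.61, 2.34 and 2.55 in cerebellum at 3X. The third went from 3.74 in liver, 3.37 in cortex and 3.57 in cerebellum to 1.98, 1.95 and 2.41 in liver, 2.44, 2.17 and 2.29 in cortex, and 2.17, 2.26 and 2.25 in cerebellum. The change in the mean of the 3 probe sets was -0.01 (limma adjusted p = 0.937).

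Psmb4, a structural subunit of the beta ring, had 3 probe sets. The first (98556_at) rose by 0.24 ± 0.07, from 6.77 in liver, 6.77 in cortex and 6.67 in cerebellum to 7.15, 6.92 and 7.06 in liver, 7.08, 6.83 and 6.90 in cortex, and 6.88, 7.01 and 6.95 in cerebellum. The second (98558_r_at) rose by 0.22 ± 0.07, from 5.81 in liver, 5.73 in cortex and 5.79 in cerebellum to 5.90, 6.03 and 6.04 in liver, 5.82, 5.93 and 6.0 in cortex, and 6.06, 6.22 and 5.98 in cerebellum. The third (98557_f_at) fell by 0.64 ± 0.21, from 5.49 in liver, 4.90 in cortex and 5.10 in cerebellum to 4.32, 4.25 and 5.25 in liver, 4.55, 3.97 and 4.58 in cortex, and 4.38, 4.55 and 4.80 in cerebellum, with liver replicate 3 well above the other liver arrays. In a fit to a single difference per tissue both rises missed the threshold (limma adjusted p = 0.0514 and 0.0579). The fall was not called without the cortex arrays (0.0673) or the cerebellum arrays (0.0913).

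For the ATPase Psmc5, 161921_f_at rose by 0.42 ± 0.08 and 160534_at fell by 0.71 ± 0.09. The former went from 4.72 in liver, 4.65 in cortex and 4.68 in cerebellum to 5.23, 4.98 and 5.14 in liver, 5.10, 5.05 and 5.17 in cortex, and 4.98, 4.93 and 5.29 in cerebellum. The latter went from 2.82 in liver, 3.22 in cortex and 3.41 in cerebellum to 2.23, 2.35 and 2.04 in liver, 2.70, 2.66 and 2.40 in cortex, and 2.49, 2.64 and 2.45 in cerebellum, below the array medians. For the lid subunit Psmd11, 94796_at rose by 0.58 ± 0.12 and 160304_r_at by 0.48 ± 0.07, while 160305_at fell by 1.04 ± 0.17. The first read 2.79 in liver, 2.57 in cortex and 2.73 in cerebellum at 1X and 3.17, 3.11 and 3.36 in liver, 3.10, 3.34 and 3.48 in cortex, and 3.15, 3.19 and 3.63 in cerebellum at 3X. The second read 5.36 in liver, 5.48 in cortex and 5.27 in cerebellum at 1X and 5.87, 6.03 and 5.74 in liver, 5.78, 5.93 and 5.82 in cortex, and 5.91, 5.81 and 5.77 in cerebellum at 3X. The third dropped from 4.39 in liver, 3.26 in cortex and 3.47 in cerebellum to 2.81, 2.63 and 2.56 in liver, 2.59, 2.67 and 2.66 in cortex, and 2.81, 2.73 and 2.47 in cerebellum, below the array medians at 3X. In a fit to a single difference per tissue this last fall missed the threshold (limma adjusted p = 0.051). For Psme1, 101510_at fell by 1.47 ± 0.21 and 161293_r_at rose by 0.36 ± 0.12, a rise not called without the cerebellum arrays (limma adjusted p = 0.0949). A further 2 genes had a called and an uncalled probe set, Psmb5 with -0.09 ± 0.12 for the dim one, and Psmc3 with -1.06 ± 0.21 (called) and 0.50 ± 0.23 (not called) beside the fall above. Psmg3 was the remaining gene, with both probe sets higher.

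**Figure D5:**
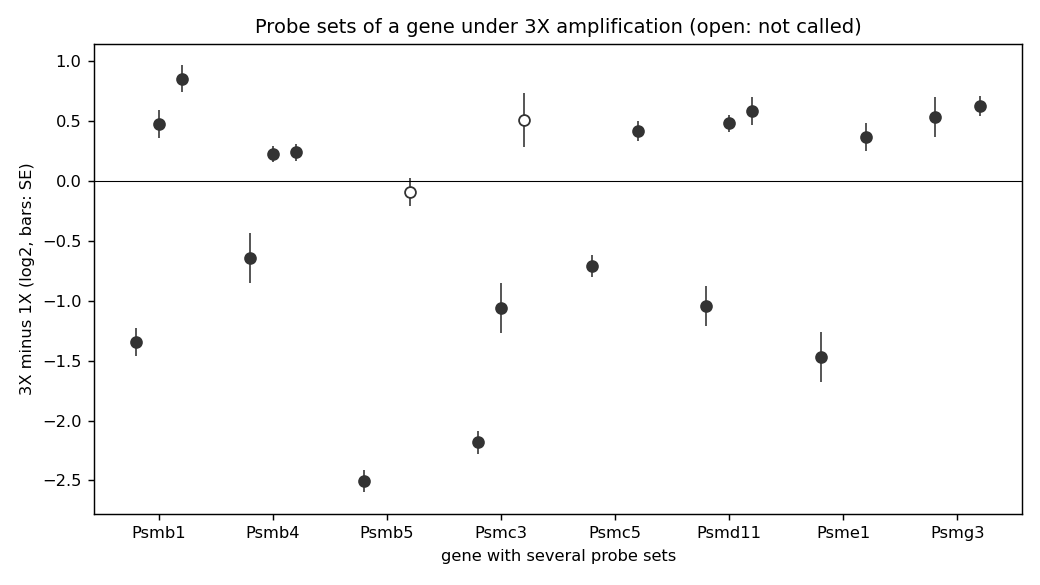
Change from 1X to 3X (log2, bars are SE) of each probe set of the 8 member genes with several probe sets; filled points were called. Psmb1, Psmb4, Psmc5, Psmd11 and Psme1 have filled points on both sides of 0, as in Psmb1 at 0.85 and -1.35.

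The 3X change depended on tissue for 5 of 58 members (8.62%, against 10.4% of all probe sets), and in all 5 the liver signal fell most. Psme1 (101510_at) changed by -2.33 in liver, -1.20 in cortex and -0.87 in cerebellum (limma interaction adjusted p = 0.00337). Psmb9 changed by -0.83 in liver, 0.41 in cortex and 0.47 in cerebellum (adjusted p = 0.00931), and Psmb8 by -1.36 in liver, 0.24 in cortex and 0.14 in cerebellum (adjusted p = 0.0167). For these 2 inducible subunits liver was lower than at 1X and the brain regions were higher. Without the liver arrays the Psmb9 change was 0.44 and called (limma adjusted p = 0.0117). The lid probe set Psmd11 160305_at changed by -1.72 in liver, -0.62 in cortex and -0.80 in cerebellum (adjusted p = 0.0109), and the dim Psmb5 160559_at by -0.55 in liver, 0.05 in cortex and 0.21 in cerebellum (adjusted p = 0.0465). Other probe sets of Psme1, Psmd11 and Psmb5 were not called for tissue dependence. Psme1 161293_r_at rose by 0.44 in liver, 0.36 in cortex and 0.29 in cerebellum. The limma interaction adjusted p was 0.967 and 0.976 for the other Psmd11 probe sets and 0.70 for Psmb5 101558_s_at. The test takes the lone 1X array of a tissue to vary like the 3X replicates. In simulated arrays it found 0% of known changes of 0.5 (log2) and 45% of those of 1. Probe sets without a call may therefore still depend on tissue. Without liver replicate 3, 10 members were called (17.2%, against 14.6% of all probe sets), the additional 5 being the alpha subunits Psma2, Psma3, Psma5 and Psma7, and Psme4.

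Other genes of the pathway were read from 3 lists. For antigen processing, where peptides cut by the proteasome are loaded on MHC class I molecules, 6 of 18 probe sets (10 genes) were higher in liver at 3X and 0 lower, where 8.17% and 12.3% of all probe sets were called. The MHC light chain B2m was higher by 2.56 ± 0.22 (3.47 at 1X), the heavy chain H2-K1 (93120_f_at) by 1.02 ± 0.17 (4.35 at 1X) and tapasin (Tapbp, 162104_f_at), which holds them at the peptide transporter, by 0.79 ± 0.10. That Tapbp probe set is dim and carries a suffix, and the brighter Tapbp probe sets were not called (0.12 ± 0.11 and 0.25 ± 0.10). Nor were the other H2-K1 probe sets (0.33 ± 0.14 and 0.15 ± 0.09). The SD of the liver arrays was 0.587 for B2m and 0.509 for H2-K1, above the shared spread. At 3X 1 of the 18 rose and 5 fell. The 3X change depended on tissue for 8 of the 18 (10.4% of all probe sets), in H2-D1, H2-K1, Irf1, Pdia3 and Tapbp, and in all 8 liver fell the most, as for Psmb8, Psmb9 and Psme1. The H2-K1 probe set changed by -4.45 in liver, -0.69 in cortex and -1.54 in cerebellum (adjusted p = 0.00029). Tissue markers moved too. Of 9 hepatocyte probe sets 3 depended on tissue, and the median of the 9 changes was -1.20 for liver, against 0.29 for cortex and 0.42 for cerebellum. Of 12 neuron probe sets 8 did, with median changes of 0.34, -1.04 and -1.12 for the same tissues. In all 11 the liver difference from brain was smaller in size at 3X than at 1X, and their part in the tissue dependence of the members was not tested. Most probe sets of H2 genes carry a suffix and can share probes with other class I genes.

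For receptors, shuttles, deubiquitinases and regulators of the proteasome, 0 of 25 probe sets (16 genes) were higher in liver and 3 lower. These were Akirin2, a factor of proteasome import into the nucleus, in probe set 93768_f_at (-1.86 ± 0.08), the transcription factor Nfe2l1 in 160535_at (-0.57 ± 0.08) and the adaptor Ecpas (-0.40 ± 0.12). Other probe sets of these genes were not called, at 0.09 ± 0.10 for Nfe2l1 (101757_at) and -0.61 ± 0.21 for Akirin2 (93767_i_at). At 3X 7 rose, led by the same Akirin2 probe set (2.58 ± 0.08, from dim 1X signals), and 12 fell, led by the shuttle Ubqln1 in 99575_at (-2.13 ± 0.08). For ubiquitin and its activating and conjugating enzymes, 1 of 29 probe sets (20 genes) was higher in liver, Cdc34 (0.93 ± 0.14), and 7 were lower, with Ube2b (-1.12 ± 0.31, liver SD 0.916), Ube2o in 161396_f_at (-0.90 ± 0.10) and Ube2d3 (-0.87 ± 0.21) the most negative. Other probe sets of these genes were not called, at 0.13 ± 0.07 for Cdc34, -0.34 ± 0.12 and -0.19 ± 0.12 for Ube2o and 0.02 ± 0.09 for Ube2d3. At 3X 7 rose and 12 fell. The 3X change depended on tissue for 3 of the 25 and 0 of the 29. Between cortex and cerebellum limma called none of the probe sets of the 3 lists, and 2 of the 25 and none of the others had an unadjusted p under 0.05.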

How the data were processed

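RNA of 3 tissues from 1 mouse was hybridised to 12 arrays. The authors deposited RMA signals on the log2 scale, 1 value for each probe set and array, per the submitters' processing notes. RMA corrects background, applies quantile normalization and summarises probes, so that a shift common to all probe sets of an array is removed. The RMA version is not given in the sources used here, nor whether it was run once over all arrays. Of 12488 probe sets, 66 manufacturer's controls were left out. Symbols came from the platform annotation, and all 58 members were found in a RefSeq gene table.

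Linear models were fitted with limma 3.58.1 under R 4.3.3, using two-sided moderated tests from eBayes. P-values were adjusted by Benjamini-Hochberg across the 12422 probe sets, and a call was an adjusted p under 0.05. Tissues were compared in a fit of the 9 3X arrays (liver against the mean of both brain regions, and cortex against cerebellum). The 3X change was a coefficient over all 12 arrays with tissue as an additive term, and its dependence on tissue a moderated F test over 6 group means. The fits were tested on simulated arrays with known changes of 0.5, 1 and 2 (log2). The tissue dependence test found 0%, 45% and 89% of these. For liver against brain the shares were 64%, 96% and 98%. For cortex against cerebellum they were 57%, 91% and 100%, and for 3X against 1X 75%, 97% and 100%. A missing call therefore does not exclude a small change, least of all in tissue dependence. For arrays, the number of arrays limits the precision.

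Members and lists were chosen with earlier results of these data known. Every array's values were given for the inducible subunits and their counterparts, the activators, up to 4 calls in each direction between tissues, up to 5 in each direction at 3X, the 4 smallest interaction p-values, and genes with probe sets called both ways. Up to 3 genes were named per pathway list. Alternatives were other scalings, filters on dim or suffixed probe sets, a mean per gene, eBayes with trend, a replicate block, other sets of arrays and leaving out each array.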

Additional observations from a re-analysis of the deposited data

Results flagged for a closer look

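The change from 1X to 3X differed between tissues for 5 proteasome probe sets, by limma's moderated F test of the interaction over 12422 probe sets. The adjusted p was 0.00337 for Psme1 (101510_at), 0.00931 for Psmb9, 0.0109 for Psmd11 (160305_at), 0.0167 for Psmb8 and 0.0465 for Psmb5 (160559_at). In all 5 the liver fell most from 1X to 3X. Over the alternatives tried, the adjusted p ranged from 0.00241 to 0.0911 for Psme1, from 0.00173 to 0.0222 for Psmb9, from 0.00578 to 0.163 for Psmd11, from 0.00196 to 0.0361 for Psmb8 and from 0.0248 to 0.295 for Psmb5, which missed the threshold under 9 of 15. The highest of these values for Psme1, Psmd11 and Psmb5 came from the mean per gene, and the other probe sets of these genes were not called. With groups of 3 arrays, single arrays were not tested for lying apart.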

How the results depend on the processing

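Counts of called members are given here where they moved by over 1.5 times. Counts in this section without a share of all probe sets, here or above, cannot be compared with the rest of the array. With the additive fit over 12 arrays 5 members were higher in liver (Psmb8, Psmb9, Psmd9, Psmb3 and Psme4; 9.68% of all probe sets). Requiring the call against each region separately left 0 higher and 4 lower in liver. A minimum of 1 on the log2 scale left 0 higher and 0 lower in liver, and 0 higher and 18 lower at 3X. Among the 36 members above the median level 17 were lower at 3X and 3 depended on tissue. With a mean per gene, over 46 genes, 8 were higher at 3X and 3 depended on tissue. Without suffixed probe sets, which left out 14 members, 9 were higher at 3X. Without the cerebellum arrays 9 of all members were. Leaving out single arrays gave 1 to 3 members higher in liver, 4 to 17 lower in liver, 17 to 18 higher and 31 to 32 lower at 3X, 4 to 10 with tissue dependence and 0 between the brain regions. The mean per gene turned the sign of the 3X change for 7 probe sets, which follows from averaging probe sets of opposite sign. The values were -0.006 for both Psmb1 probe sets that rose, -0.061 for both of Psmb4, -0.55 for Psme1 161293_r_at, -0.15 for Psmc5 161921_f_at and 0.006 for Psmd11 160305_at. Counts after a filter or a mean per gene are over fewer members. Beyond that, the cause of the other shifts was not tested. For single probe sets, 899 values under an alternative kept direction and side of the threshold, 48 lost a call and 4 gained one. Replicate numbers were not taken as pairs, since same-numbered arrays correlated over 0.1 in only some pairs: the 3 pairs of replicate 3 at 0.29 to 0.34, the others at -0.10 to 0.27. With a replicate block 3 members were higher and 10 lower in liver, 0 differed between the brain regions, 18 rose and 31 fell at 3X, and 5 depended on tissue, though Psmb5 160559_at no longer did (adjusted p = 0.0585).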
